A study of Homo sapiens with 4 samples.

Results

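The 7 human semaphorin genes of classes 5 to 7, SEMA5A, SEMA5B, SEMA6A, SEMA6B, SEMA6C, SEMA6D and SEMA7A, were followed in 786-O cells that overexpressed PRDM16 and in 786-O cells with a control vector. They were found by gene name among 56753 loci in the deposited expression table, where each had 1 locus and none shared its locus with another name. The line 786-O was derived from a clear cell carcinoma of the kidney without working VHL, so that HIF, the hypoxia-inducible transcription factor, stays active in normal oxygen. PRDM16 cells carried a stably integrated lentivirus with PRDM16, a zinc finger regulator of transcription, and control cells carried the control vector. Each group had 2 RNA-seq libraries of total RNA, all from the same line, and the labels do not say whether the replicates were separate cultures. The p-values below therefore cover no more than the variation among the 4 libraries, some or all of which may be technical.

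Semaphorins are cell guidance proteins that share an extracellular sema domain and signal mainly through plexin receptors, steering axons, cell migration and vessel growth. Class 5 members span the membrane and carry thrombospondin repeats, class 6 members span the membrane with a long cytoplasmic tail, and SEMA7A is held at the surface by a lipid anchor. SEMA5B is known to be raised in clear cell renal carcinoma. Members of classes 5 and 6 can act as ligands and can also signal back into the cell that carries them, and SEMA7A also binds beta 1 integrins.

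Annotated promoters are shown for 4 of the genes whose libraries separated the groups. SEMA5B, SEMA6D and SEMA7A have several starts, which a value per gene sums. All SEMA5B starts are printed, and for SEMA6D and SEMA7A 1 start each, chosen because it holds the HIF core described next. Each window runs from 250 bases before to 50 after a RefSeq start on GRCh38.p14, and 5 of the 7 genes, with 10 starts, were in that table. Capitals mark ACGTG or GCGTG on either strand, the core that HIF recognises. SEMA5A lies on the minus strand of chromosome 5, and its window is chr5:9546026-9546325. The SEMA5B windows, on the minus strand, are chr3:123028556-123028855 for start 1, chr3:123027714-123028013 for start 2 and chr3:122993189-122993488 for start 3. The first SEMA6D window is chr15:47183839-47184138 on the plus strand, and the second SEMA7A window is chr15:74433655-74433954 on the minus strand.
SEMA5A: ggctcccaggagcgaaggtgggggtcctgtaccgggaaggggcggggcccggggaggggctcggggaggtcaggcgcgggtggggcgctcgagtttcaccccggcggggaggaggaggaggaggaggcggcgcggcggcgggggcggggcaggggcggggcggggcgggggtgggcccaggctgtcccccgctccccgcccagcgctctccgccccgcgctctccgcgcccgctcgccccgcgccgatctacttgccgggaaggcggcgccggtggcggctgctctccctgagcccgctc
SEMA5B start 1: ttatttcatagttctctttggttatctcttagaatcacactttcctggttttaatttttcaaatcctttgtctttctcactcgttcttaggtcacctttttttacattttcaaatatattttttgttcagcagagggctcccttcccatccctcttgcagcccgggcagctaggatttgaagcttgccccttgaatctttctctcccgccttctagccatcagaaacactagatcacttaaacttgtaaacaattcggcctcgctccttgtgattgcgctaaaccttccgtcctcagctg
SEMA5B start 2: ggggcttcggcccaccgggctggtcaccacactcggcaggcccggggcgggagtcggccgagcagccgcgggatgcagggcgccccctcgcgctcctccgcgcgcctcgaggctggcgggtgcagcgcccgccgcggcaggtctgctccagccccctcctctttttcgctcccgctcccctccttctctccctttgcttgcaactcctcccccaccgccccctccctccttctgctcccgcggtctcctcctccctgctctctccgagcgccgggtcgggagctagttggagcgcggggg
SEMA5B start 3: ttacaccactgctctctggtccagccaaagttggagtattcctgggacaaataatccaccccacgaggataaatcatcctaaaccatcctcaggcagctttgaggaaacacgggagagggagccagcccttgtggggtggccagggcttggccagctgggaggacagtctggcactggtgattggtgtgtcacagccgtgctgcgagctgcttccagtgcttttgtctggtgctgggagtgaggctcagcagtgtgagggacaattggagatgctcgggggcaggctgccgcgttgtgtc
SEMA6D start 1: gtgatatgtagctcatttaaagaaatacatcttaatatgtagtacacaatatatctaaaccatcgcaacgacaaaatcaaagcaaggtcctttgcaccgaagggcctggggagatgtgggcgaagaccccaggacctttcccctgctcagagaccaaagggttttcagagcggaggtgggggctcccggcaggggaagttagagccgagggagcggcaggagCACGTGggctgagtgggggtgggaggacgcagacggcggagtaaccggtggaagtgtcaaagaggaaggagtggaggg
SEMA7A start 2: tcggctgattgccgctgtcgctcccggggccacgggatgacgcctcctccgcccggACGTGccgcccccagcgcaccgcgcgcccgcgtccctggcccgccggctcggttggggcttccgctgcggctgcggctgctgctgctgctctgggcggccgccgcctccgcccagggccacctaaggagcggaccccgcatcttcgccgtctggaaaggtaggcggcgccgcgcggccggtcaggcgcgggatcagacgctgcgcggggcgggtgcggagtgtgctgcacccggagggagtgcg

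No ACGTG or GCGTG was found in the SEMA5A window or in any of the 3 SEMA5B windows, while 48.4% of all 35116 promoter windows held at least 1. The first SEMA6D window held the palindrome CACGTG, in which the 2 strands' matches overlap, the second SEMA6D window held 1 match and the second SEMA7A window held 1. The SEMA7A match lies before start 2 but downstream of start 1, within the annotated span of the gene. The third SEMA6D window, the first SEMA7A window and the SEMA6C window held 0. The 3 SEMA5B windows differed in base composition, with 42.0%, 74.7% and 57.7% G and C for starts 1, 2 and 3, against a median of 58.7% over all windows. SEMA5A was richer still, at 81.0%, with 7 copies of the GC box GGGCGG on either strand, a motif present in 45% of windows. Neither TATAAA (11.5% of windows) nor ACAAGATA (0.461%), which is part of the sequence bound by the PRDM16 relative EVI1, was found in any of the 10 windows. The deposited value does not say which start was used.

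PRDM16 itself was at 1226 and 1146 FPKM in PRDM16 cells, against 0.0157 and 0.234 FPKM in control vector cells (fragments per kilobase of transcript, a level scaled for gene length and library size). The log2 difference was 10.05 (SE 0.13), with an adjusted p of 0.000317 from limma. Of the renal carcinoma markers, PAX8 was between 169 and 208 FPKM and VIM between 3330 and 3455 FPKM over the 4 libraries, while LHX1 was at no more than 0.256 FPKM. That list (6 of 8 genes tested) summed to 4023 and 3902 FPKM in PRDM16 cells and 4084 and 4105 FPKM in control vector cells. Most of each sum was VIM. Of the 6, 4 were lower in both PRDM16 libraries and 1, KRT8, higher in both, beside 20.3% and 21.1% of all tested loci. The log2 changes of the 4 ran from -0.62 for EPAS1 to -0.03 for VIM. The locus that names KRT18 with another gene was also higher in both. EPAS1, which encodes the HIF alpha subunit of these cells, was at 74.0 and 63.6 FPKM in PRDM16 cells, against 79.6 and 141 FPKM in control vector cells (log2 change -0.62, limma adjusted p = 0.689). Among markers of other cell types, CD3E and DCN were listed at 0 in all libraries, PTPRC was at no more than 0.0126 FPKM, and PECAM1, CDH5 and VWF were at no more than 0.110 FPKM. The endothelial list (1 of 5 genes tested) summed to 2.56 and 2.86 FPKM in PRDM16 cells and 1.76 and 2.33 FPKM in control vector cells, most of it TIE1. The fibroblast list (2 of 5 genes tested) summed to 4.02 and 4.36 FPKM in PRDM16 cells and 4.33 and 3.27 FPKM in control vector cells, from LUM and COL1A1. A locus that names PDGFRA with other genes was at 38.3 and 39.6 FPKM in PRDM16 cells and 32.4 and 31.1 FPKM in control vector cells. The leukocyte list (2 of 6 genes tested) summed to 29.0 and 26.5 FPKM in PRDM16 cells and 15.7 and 16.5 FPKM in control vector cells, most of it LCP1, with CSF1R between 2.11 and 3.31 FPKM. The neuronal list (4 of 5 genes tested) summed to 73.4 and 76.3 FPKM in PRDM16 cells and 116 and 85.9 FPKM in control vector cells, most of it NEFL, with RBFOX3 between 0.826 and 1.68 FPKM. The part of these lists in the results was not tested. Control vector replicate 2 stood apart, with 10 cell cycle genes summing to 729 FPKM and 10 genes of the ATF4 and unfolded protein response to 1916 FPKM, where the other libraries had 1163 to 1239.6 and 788 to 1152 FPKM. It was also the deepest library, with 1.39 times as many reads as control vector replicate 1 by an estimate from the lowest values, where PRDM16 replicates 1 and 2 were at 1.26 and 1.17 times.

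Of the 7 semaphorins, 4 had both PRDM16 values under both control vector values, namely SEMA5A, SEMA5B, SEMA6A and SEMA6D. SEMA7A was higher in both, and SEMA6B and SEMA6C overlapped between the groups. A lower mean was seen for 6 of the 7, beside 49.3% of the tested loci. In bulk RNA, fewer cells with a transcript and less of it per cell cannot be told apart. The background was large, since 20.3% of the 13246 tested loci were lower in both PRDM16 libraries and 21.1% were higher in both. No semaphorin passed the test at an adjusted p under 0.05 (limma on log2(FPKM + 1), Benjamini-Hochberg over all tested loci), which 3 loci passed, 0.0226% of those tested. An unadjusted p under 0.05 was reached by 5 of the 7, of which 4 were lower and 1 higher, beside 3.7% of all tested loci lower and 2.42% higher. The median log2 change was -0.58 over the 7 genes and 0.00399 over all tested loci. The members were chosen with earlier results of these data known. These contrasts with all tested loci are therefore descriptive and do not test the family. All 7 passed the mean of at least 1 FPKM required for testing, SEMA6B and SEMA6C barely, at means of 1.06 and 1.09 FPKM, and SEMA6C only through its control vector level. With 2 libraries against 2, a two-sided exact permutation test could not go below p = 0.333, so none is given.

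**Figure D1:**
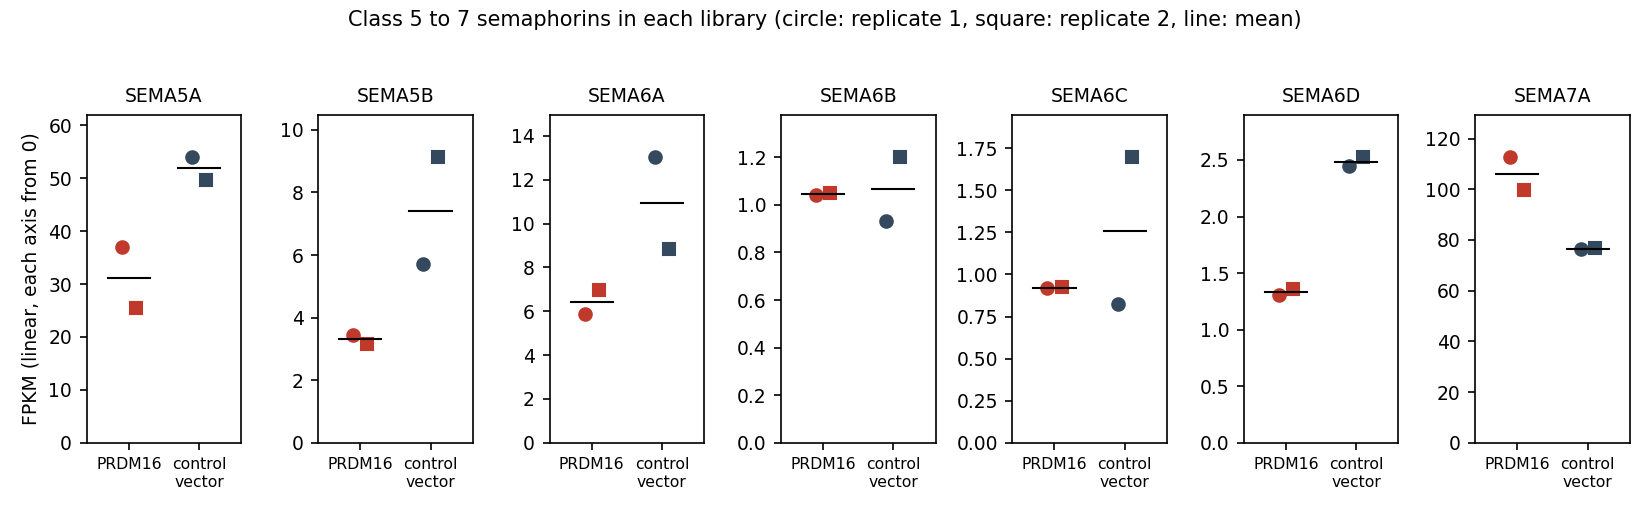
FPKM of each of the 7 semaphorin genes (linear axes from 0) in the 2 PRDM16 libraries (red) and the 2 control vector libraries (dark blue), with circles for replicate 1, squares for replicate 2 and a line at each group's mean. Both PRDM16 points lie below both control vector points for SEMA5A, SEMA5B, SEMA6A and SEMA6D and above them for SEMA7A, while SEMA6B and SEMA6C overlap.

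SEMA5B, a class 5 transmembrane ligand that in the mouse retina restrains neurite growth together with Sema5A, had the lowest level in PRDM16 cells relative to control of the 7 genes. It was at 3.46 and 3.15 FPKM in PRDM16 cells, against 5.72 and 9.12 FPKM in control vector cells. The PRDM16 libraries were close together and the control vector libraries were not, the highest being control vector replicate 2. The means were 3.30 ± 0.221 FPKM and 7.42 ± 2.40 FPKM (SD, n = 2 each), 2.25-fold lower with PRDM16. The log2 change was -0.94 (SE 0.22, 95% interval -1.53 to -0.35, limma adjusted p = 0.689, unadjusted p = 0.00999). Of all tested loci, 0.695% had a larger drop. Without control vector replicate 2 the log2 change was -0.65, and without control vector replicate 1 it was -1.24, so the gene was lower in each case. SEMA5B lies on chromosome 3 at 122909082 to 123028605 on the minus strand, and no other GENCODE gene overlaps its span.

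SEMA5A, for which plexin B3 is a known receptor, was the second most abundant member. It was at 36.9 and 25.4 FPKM in PRDM16 cells, against 54.0 and 49.8 FPKM in control vector cells. Here the wider spread was between the PRDM16 libraries, and control vector replicate 2 was not the highest. The means were 31.2 ± 8.17 FPKM and 51.9 ± 2.97 FPKM (SD, n = 2 each), 1.66-fold lower with PRDM16. The log2 change was -0.74 (SE 0.20, 95% interval -1.26 to -0.22, limma adjusted p = 0.689). It was -0.48 without PRDM16 replicate 2 and farther from 0 without PRDM16 replicate 1. The ratio of SEMA5A to SEMA5B, both FPKM levels, was 10.7 and 8.07 in PRDM16 cells and 9.43 and 5.45 in control vector cells, so the groups overlapped and the balance within class 5 was not separated. SEMA5A spans chromosome 5 from 9035026 to 9546075 on the minus strand, and GENCODE places 3 genes on the opposite strand within or across that span, none of which has a row of that name in the deposited table.

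Among the class 6 genes, SEMA6A and SEMA6D were lower in both PRDM16 libraries. SEMA6A, a ligand of plexins A2 and A4 that guides migrating granule cells in the mouse cerebellum, was at 5.89 and 6.97 FPKM in PRDM16 cells, against 13.0 and 8.85 FPKM in control vector cells. Its control vector libraries lay far apart in the opposite order to those of SEMA5B, with replicate 1 the higher. The means were 6.43 ± 0.766 FPKM and 10.9 ± 2.96 FPKM (SD, n = 2 each), 1.70-fold lower with PRDM16, and the log2 change was -0.67 (SE 0.20, 95% interval -1.20 to -0.13, limma adjusted p = 0.689). Without control vector replicate 1 the log2 change was -0.41, and without control vector replicate 2 it was -0.92. SEMA6A lies on chromosome 5 at 116443616 to 116574934 on the minus strand.

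SEMA6A-AS1, annotated on the opposite strand within SEMA6A at 116447547 to 116508276, was at 0.236 and 0.379 FPKM in PRDM16 cells, against 0.591 and 0.696 FPKM in control vector cells. The antisense values, too low to be tested, were lower in both PRDM16 libraries as well. Whether the libraries kept strand is not given in the sources used here, so reads of SEMA6A and SEMA6A-AS1 may not be separable. The pseudogene RPS14P8, which also lies within SEMA6A, was at 72.3 and 74.1 FPKM in PRDM16 cells and 71.3 and 77.1 FPKM in control vector cells, overlapping between the groups. It is a copy of a ribosomal protein gene and can take that gene's reads.

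SEMA6D, a ligand of plexin A1 that in the chick shapes the developing heart, had the tightest replicates of the lower genes. It was at 1.31 and 1.36 FPKM in PRDM16 cells, against 2.45 and 2.52 FPKM in control vector cells. The gap between the groups was far wider than the gap within either of them. The means were 1.33 ± 0.0381 FPKM and 2.49 ± 0.0526 FPKM (SD, n = 2 each), 1.86-fold lower with PRDM16. The log2 change was -0.58 (SE 0.14, 95% interval -0.94 to -0.22, limma adjusted p = 0.689), and with each library left out in turn it stayed between -0.60 and -0.56. The pseudocount compresses so low a level, and with a pseudocount of 0.1 the log2 change was -0.85. SEMA6D spans chromosome 15 from 47184101 to 47774223 on the plus strand.

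SEMA6B, a ligand of plexin A4, was at 1.04 and 1.05 FPKM in PRDM16 cells, against 0.934 and 1.20 FPKM in control vector cells. The PRDM16 libraries fell between the control vector libraries, and the log2 change was -0.01 (95% interval -0.45 to 0.43, limma adjusted p = 0.981). SEMA6C, another transmembrane member of the class, was at 0.918 and 0.926 FPKM in PRDM16 cells, against 0.823 and 1.70 FPKM in control vector cells. Again the PRDM16 libraries lay between the others, with control vector replicate 2 alone high. Its log2 change was -0.21 (95% interval -0.85 to 0.43, limma adjusted p = 0.765). Without control vector replicate 2 both genes were slightly higher with PRDM16, at log2 changes of 0.08 each. On the log2(FPKM + 1) scale the SEMA6C interval holds the SEMA6D log2 change of -0.58 and the SEMA6B interval does not. The pseudocount compresses SEMA6B more than SEMA6D, so a drop of the same fold in SEMA6B is not excluded. With a pseudocount of 0.1 the SEMA6B log2 change was -0.017 (SE 0.34). SEMA6B lies on chromosome 19 at 4542593 to 4559808 and SEMA6C on chromosome 1 at 151131685 to 151146664, both on the minus strand.

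SEMA7A, a ligand of plexin C1 and of beta 1 integrins known for roles in immune cells and axon growth, went the other way. It was at 113 and 99.8 FPKM in PRDM16 cells, against 76.5 and 76.7 FPKM in control vector cells. Both PRDM16 libraries were above both control vector libraries, which were nearly equal. The means were 106 ± 9.05 FPKM and 76.6 ± 0.117 FPKM (SD, n = 2 each), 1.39-fold higher with PRDM16. The log2 change was 0.46 (SE 0.10, 95% interval 0.20 to 0.72, limma adjusted p = 0.689), and 2.26% of tested loci had a larger gain. With each library left out in turn the log2 change stayed between 0.38 and 0.55. SEMA7A lies on chromosome 15 at 74409289 to 74433958 on the minus strand.

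**Figure D2:**
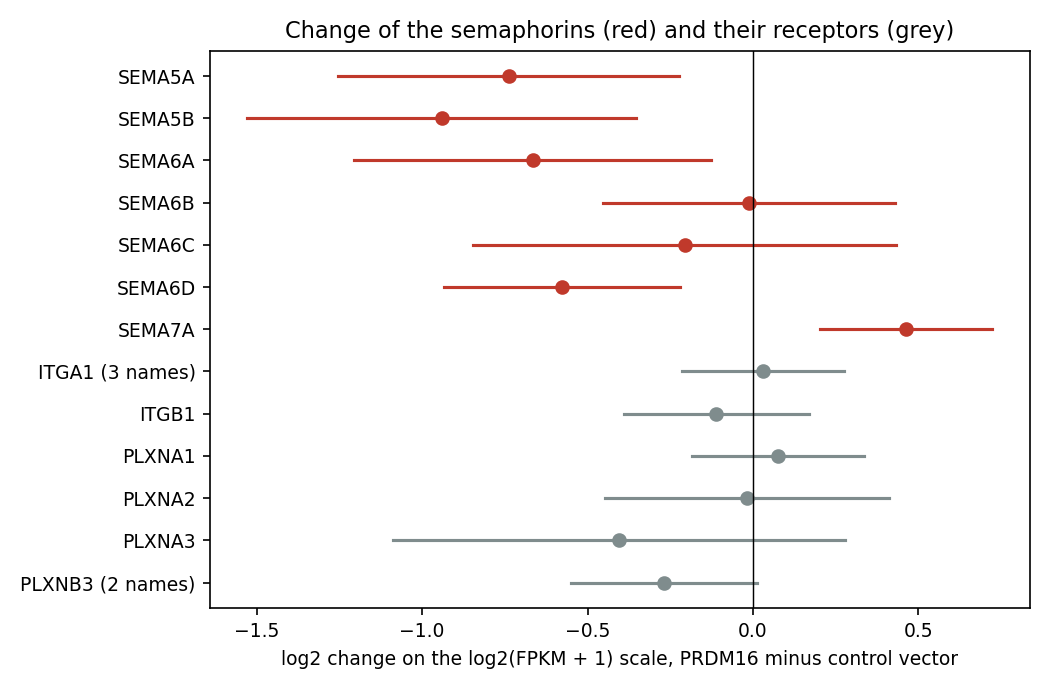
Log2 change on the log2(FPKM + 1) scale, PRDM16 minus control vector, with its 95% limma interval for the 7 semaphorins (red) and for 6 receptor loci above the filter (grey). The intervals of SEMA5A, SEMA5B, SEMA6A and SEMA6D lie below 0 and that of SEMA7A above 0 before any adjustment for the 13246 loci tested, while those of SEMA6B, SEMA6C and the 6 receptor loci cross 0.

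In FPKM, which is a level per length, the order of the genes was SEMA7A, SEMA5A, SEMA6A, SEMA5B, SEMA6D, SEMA6B and SEMA6C in PRDM16 cells, with no overlap between neighbours. In control vector cells SEMA6A and SEMA5B overlapped, as did SEMA6B and SEMA6C, so the order within each of those pairs was not resolved. The members spanned a wide range of tested levels, upward from SEMA6B, which was above 0.883% of tested loci in mean level. SEMA7A was above 90.5% of tested loci in mean level, SEMA5A above 77.4%, SEMA6A above 39.5%, SEMA5B above 28.4% and SEMA6D above 10.1%.

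The summed level of the 7 genes overlapped between the groups, at 162 and 139 FPKM in PRDM16 cells, against 153 and 149.8 FPKM in control vector cells. The shares of SEMA5A, SEMA5B, SEMA6A, SEMA6D and SEMA7A in that sum did not overlap, while those of SEMA6B and SEMA6C did. In FPKM itself, 20.3% of all tested loci were lower in both PRDM16 libraries and 21.1% were higher in both. Shares of 1 sum are tied together, so a larger SEMA7A share lowers the others. SEMA7A supplied 69.4% and 72.0% of the sum in PRDM16 cells, against 49.9% and 51.2% in control vector cells. SEMA5A supplied 22.8% and 18.3% in PRDM16 cells, against 35.2% and 33.2% in control vector cells. SEMA5B supplied 2.13% and 2.27% in PRDM16 cells, against 3.73% and 6.09% in control vector cells. Without SEMA7A the sum was 49.6 and 38.9 FPKM in PRDM16 cells, against 76.9 and 73.1 FPKM in control vector cells. The ratio of SEMA7A to SEMA5A, which does not depend on library scaling, was 3.05 and 3.93 in PRDM16 cells, against 1.42 and 1.54 in control vector cells. These shares follow from the values above and are not independent of them.

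**Figure D3:**
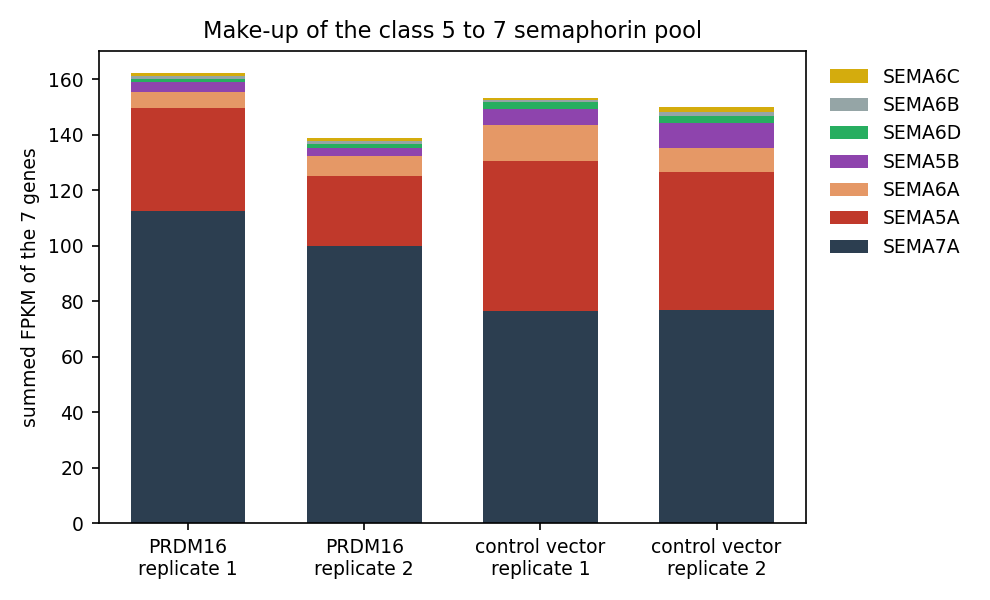
Summed FPKM of the 7 semaphorin genes in each library, stacked by gene, with the PRDM16 libraries on the left and the control vector libraries on the right. SEMA7A makes up 69.4% and 72.0% of the bar in the PRDM16 libraries and 49.9% and 51.2% in the control vector libraries, and the SEMA5A part is smaller with PRDM16.

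The lower genes did not all rest on the same library. With control vector replicate 2 left out, 4 of the 7 genes were still lower in both PRDM16 libraries than in the remaining control vector library, beside 36.2% of tested loci, and 3 were higher, beside 34.0%. With control vector replicate 1 left out, 6 were lower, beside 40.7% of tested loci, and 1 was higher, beside 43.9%. SEMA5B was most distant from 0 without control vector replicate 1, SEMA6A without control vector replicate 2 and SEMA5A without PRDM16 replicate 1.

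**Figure D4:**
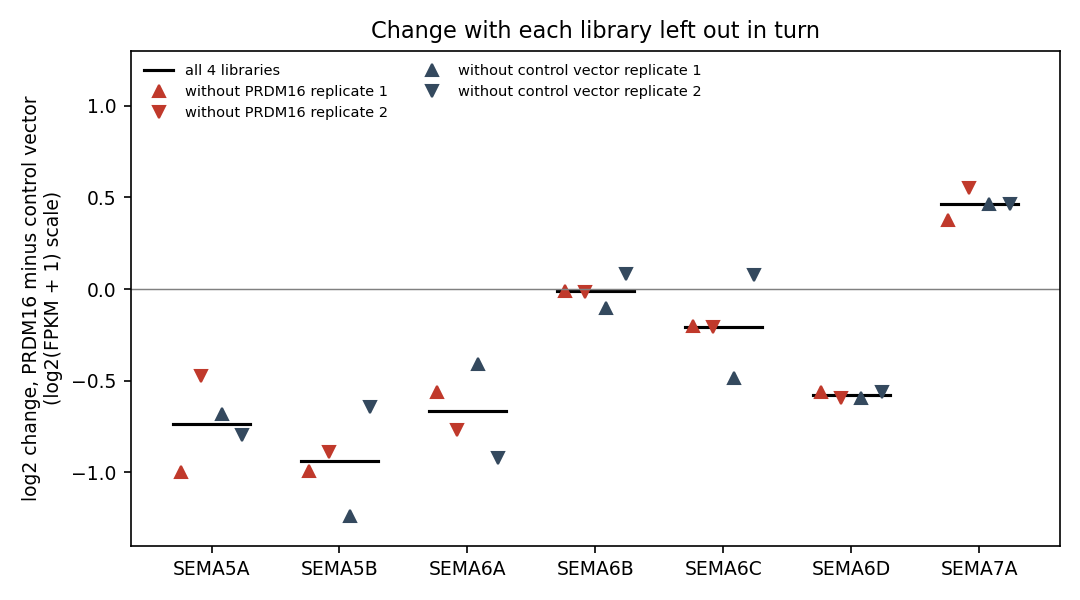
Log2 change of each semaphorin gene (PRDM16 minus control vector, on the log2(FPKM + 1) scale) with all 4 libraries (black line) and with each library left out in turn (red triangles for a PRDM16 library left out, dark blue for a control vector library). SEMA6D and SEMA7A vary least, SEMA5B runs from -1.24 to -0.65, and SEMA6B and SEMA6C cross 0 without control vector replicate 2.

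The receptors known for these ligands were present in part. PLXNA1, a plexin for class 5 and 6 ligands, was at 18.5 and 17.2 FPKM in PRDM16 cells, against 17.5 and 16.3 FPKM in control vector cells. PLXNA3, another A-class plexin, was at 26.9 and 19.1 FPKM in PRDM16 cells, against 24.7 and 37.1 FPKM in control vector cells. Both overlapped between the groups, with log2 changes of 0.08 for PLXNA1 and -0.41 for PLXNA3 (limma adjusted p = 0.790 and 0.689). PLXNA2 was at 1.20 and 1.41 FPKM in PRDM16 cells, against 1.20 and 1.46 FPKM in control vector cells. PLXNA4 was below the filter, at 0.351 and 0.274 FPKM in PRDM16 cells and 0.357 and 0.115 FPKM in control vector cells. The locus that names PLXNB3, a SEMA5A receptor, together with SRPK3 was at 5.02 and 5.18 FPKM in PRDM16 cells, against 6.07 and 6.65 FPKM in control vector cells. That sum was lower in both PRDM16 libraries, with a log2 change of -0.27 (limma adjusted p = 0.689), and the genes in it cannot be told apart.

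For SEMA7A, the plexin receptor was scarce and the beta 1 integrin chain abundant. PLXNC1 was at 0.312 and 0.330 FPKM in PRDM16 cells, against 0.288 and 0.567 FPKM in control vector cells, below the filter. ITGB1, the beta 1 integrin chain, was at 761 and 660.2 FPKM in PRDM16 cells, against 734 and 798 FPKM in control vector cells. The locus that names ITGA1, a partner chain, with other genes was at 9.72 and 10.1 FPKM in PRDM16 cells, against 9.74 and 9.66 FPKM in control vector cells. The genes in that locus cannot be told apart, so the level of ITGA1 itself is unknown. Neither ITGB1 nor that locus passed the test, with log2 changes of -0.11 and 0.03 (limma adjusted p = 0.731 and 0.919). For SEMA6D, the partner receptor KDR was at 0.142 and 0.144 FPKM in PRDM16 cells, against 0.125 and 0.0707 FPKM in control vector cells, and TREM2 was listed at 0 in all libraries.

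The wider semaphorin system held 0 calls by limma over its 5 lists (class 3 and class 4 semaphorins, plexins, co-receptors and cytoplasmic partners). Loci with several names are left out of the counts and medians of these lists. An unadjusted p under 0.05 was reached by 2 of 6 tested plexins, 2 of 8 co-receptors and 1 of 4 class 4 semaphorins, beside 3.7% of all tested loci lower and 2.42% higher. The counts below stand beside 49.3% of all tested loci with a lower mean, 20.3% lower in both PRDM16 libraries and 21.1% higher in both. The lists were also chosen with earlier results of these data known, so these contrasts do not test them. Of 6 tested plexins, 5 had a lower mean and 2 were lower in both PRDM16 libraries, with a median log2 change of -0.22. That median was -0.09 without PRDM16 replicate 1 and -0.08 when control vector replicate 2 was left out. PLXNB2 was at 86.4 and 78.6 FPKM in PRDM16 cells, against 99.0 and 116 FPKM in control vector cells. PLXND1, the SEMA3E receptor, was at 9.89 and 11.2 FPKM in PRDM16 cells, against 12.8 and 13.2 FPKM in control vector cells. Apart from the locus shared by PLXNB3 and SRPK3, these were the plexins lower in both PRDM16 libraries.

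Of 4 tested class 3 semaphorins, 4 had a lower mean and 1 was lower in both PRDM16 libraries, a share near the 20.3% of all tested loci. The median log2 change was -0.18, or -0.02 without PRDM16 replicate 2 and -0.31 without PRDM16 replicate 1. SEMA3C, the most abundant of these secreted ligands, was at 244 and 190.3 FPKM in PRDM16 cells, against 227 and 270.3 FPKM in control vector cells. SEMA3A was at 9.93 and 8.65 FPKM in PRDM16 cells, against 10.6 and 10.2 FPKM in control vector cells. The locus that names SEMA3B with the microRNA gene MIR6872 was at 1.69 FPKM in both PRDM16 libraries, against 3.89 and 5.51 FPKM in control vector cells, with a log2 change of -1.07 (limma adjusted p = 0.689). Of 4 tested class 4 semaphorins, 3 had a lower mean and 2 were lower in both PRDM16 libraries, with a median log2 change of -0.11. It was -0.04 when control vector replicate 2 was left out and -0.19 when control vector replicate 1 was. The 2 were SEMA4F, at 7.99 and 7.49 FPKM in PRDM16 cells and 9.30 and 10.2 FPKM in control vector cells, and SEMA4C, at 11.8 and 10.9 FPKM in PRDM16 cells and 12.3 and 13.9 FPKM in control vector cells. Over classes 3 to 7, 15 semaphorin genes with a locus of their own were tested, so without SEMA3B. Of these 7 were lower in both PRDM16 libraries and 1, SEMA7A, was higher in both, beside 20.3% and 21.1% of all tested loci. The lower genes include SEMA5A, SEMA5B, SEMA6A and SEMA6D, so this count is not separate from the one given for the members.

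Of 8 tested co-receptors, 6 had a lower mean, 3 were lower in both PRDM16 libraries and 1 was higher in both, beside 20.3% and 21.1% of all tested loci. The median log2 change was -0.13, and it was -0.20 without PRDM16 replicate 1, -0.06 when either PRDM16 replicate 2 or control vector replicate 1 was left out. The one higher was PTK7, a receptor-like pseudokinase, at 5.94 and 5.22 FPKM in PRDM16 cells and 3.28 and 4.06 FPKM in control vector cells. ERBB2, a kinase that associates with B-class plexins, was at 16.4 and 15.6 FPKM in PRDM16 cells, against 18.7 and 19.8 FPKM in control vector cells. Of 20 tested cytoplasmic partners, 14 had a lower mean, 6 were lower in both PRDM16 libraries and 1 was higher in both, beside the same shares. The median log2 change was -0.08, or -0.00125 without PRDM16 replicate 2, and it was -0.12 when control vector replicate 1 was left out. ENAH, an actin regulator of the family that binds the SEMA6A tail, was at 82.5 and 79.6 FPKM in PRDM16 cells, against 113 and 90.3 FPKM in control vector cells.

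Genes with the most similar profile were sought among 8963 other single-name protein-coding loci, by the distance between log2(FPKM + 1) values centred over the 4 libraries. Nearest to SEMA5B were ACKR3, an atypical chemokine receptor (distance 0.121), and SYT1, a calcium sensor of vesicle release (0.126). ACKR3 was at 7.13 and 6.34 FPKM in PRDM16 cells, against 10.1 and 15.8 FPKM in control vector cells, and SYT1 at 2.06 and 1.87 FPKM in PRDM16 cells, against 4.09 and 6.57 FPKM in control vector cells. Both shared with SEMA5B a high value in control vector replicate 2, which follows from their choice by likeness to its profile. The nearest to SEMA5A were LAYN (0.0726) and TENM3 (0.149), those to SEMA6A were SSBP2 (0.135) and STON2 (0.150), and those to SEMA6D were SLC16A5 (0.0339) and SLCO2A1 (0.0403). SEMA7A was nearest to TSPAN18 (0.106) and CD274 (0.109), SEMA6B to SERINC1 (0.0142) and HOXA11 (0.0145), and SEMA6C to FAM117B (0.0472) and TMEM87B (0.0485). A profile over 4 libraries is short, and for genes that hardly vary a small distance says little.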

How the data were processed

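RNA-seq of 786-O cells gave 1 deposited table with 1 value per locus for 2 PRDM16 and 2 control vector libraries. The submitters' processing notes name hg38 as the build and, as tools, Cufflinks 2.2.1, Cuffdiff, TopHat2 2.1.0 and Trim Galore. No source used here gives the annotation, filters, scaling or strand setting. The header of the deposited table names no unit, and the authors' values were taken as FPKM from these tools and from sums of 556213 to 574003 per library. Read numbers behind a value are unknown, and relative depth was read from the commonest ratio among 3414 loci under 0.3 FPKM. All 11 mitochondrially encoded loci are listed at 0, so a 0 elsewhere may be a failed estimate.

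The test was limma 3.58.1 (R 4.3.3) on log2(FPKM + 1) for loci averaging at least 1 FPKM over all libraries, with a variance trend, two-sided, with Benjamini-Hochberg adjustment. Changes on that scale understate those of low genes. The fit was tested on simulated data. Tables and plots used Python 3.11.15, pandas 2.3.3 and matplotlib 3.10.9. Coordinates are from GENCODE release 29 on GRCh38, the assembly behind hg38, which may differ from the authors' annotation, and promoter sequences are from RefSeq on GRCh38.p14.

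Named genes were the 7 semaphorins, PRDM16, the receptors known for them, the 2 genes of smallest p in each list of the semaphorin system, and the 2 nearest profiles of each semaphorin. A result on a gene that this rule names is not reported here. From the lists of cell cycle, ATF4 and cell type markers, sums and defining markers are given. The SEMA3B locus, SEMA6A-AS1 and RPS14P8 were added after their values were seen. The members and lists were chosen with earlier results of these data known. Alternatives were 2 other pseudocounts, 2 other filters, 3 scalings, no variance trend, the replicate number as a block and leaving out each library. Count-based tools were not run, because the table holds no counts.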

Additional observations from a re-analysis of the deposited data

How the results depend on the processing

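None of the 7 semaphorins and no gene of the 5 lists of the semaphorin system passed the limma test in any of the 14 settings run, and SEMA5A, SEMA5B, SEMA6A and SEMA6D were lower and SEMA7A higher in each setting that tested them. Over these settings the SEMA5B log2 change ran from -1.24 to -0.65 and its adjusted p from 0.130 to 1. SEMA6B was higher after quantile normalization, at 0.029, and ran from -0.10 to 0.081 with 1 library left out, as SEMA6C did from -0.49 to 0.076. The number of loci called was 3, and it became 5 at pseudocount 0.1, 6 when the variance trend was dropped, 1 when low loci were kept and 16 to 39 with 1 library left out. With the replicate number as a block it was 5, and no semaphorin's call was different. Same-numbered libraries did not deviate together (correlation -0.0584 across loci), so the numbers are not taken as pairs. The plexin median of -0.22 was -0.25 at pseudocount 0.1, -0.13 with low loci kept, -0.28 at a mean FPKM of at least 5, -0.20 after quantile normalization and -0.30 to -0.078 with 1 library left out. That of class 3 semaphorins ran from -0.31 to -0.016 and that of cytoplasmic partners from -0.12 to -0.00125 with 1 library left out. The cause of these shifts was not tested. At a mean FPKM of at least 5, SEMA6B, SEMA6C and SEMA6D were not tested. With 1 library left out, the lone library is assumed to vary like the other group. The 2 libraries per group and the unknown read numbers limit the precision of every value, most of all for SEMA6B, SEMA6C and SEMA6D near 1 to 2 FPKM.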
